A study of Mus musculus with 4 samples.

Results

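The genes described here are 7 chemoattractant receptor genes of mouse myeloid cells: Fpr1 and Fpr2, which encode receptors for formyl peptides; C5ar1, C5ar2 and C3ar1, which encode receptors for the anaphylatoxins C5a and C3a; Ltb4r1, which encodes the high-affinity receptor for leukotriene B4; and Ptafr, which encodes the receptor for platelet-activating factor. They were chosen by name, and each symbol named exactly 1 of the 53465 rows of the count table. MDSCs (myeloid-derived suppressor cells) are a mixed population of immature granulocytic and monocytic cells that expands with tumor growth and dampens T cells. For RNA-seq, they were taken with beads against Gr-1 (an epitope of Ly-6G and Ly-6C) from the spleens of male BALB/c mice that had received 4T1 cells, a transplantable mammary carcinoma line, under the skin at an age of 6 weeks. All 4 libraries came from such tumor-bearing mice. The control group (n = 2) was kept in control medium for 6 h, and the EGCG treatment group (n = 2) was exposed for the same time to EGCG, a polyphenol of green tea, at 5 μg/mL. The labels place the sacrifice on day 21 after the 4T1 injection, whereas the study's methods give a shorter interval of 2 weeks, and neither says if a group's 2 libraries were from separate mice or separate wells. The p-values therefore measure only the spread between these libraries, which may be technical.

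These receptors belong to the class of G protein-coupled receptors, which span the membrane with a bundle of helices. Most of them couple to inhibitory G proteins, whose released subunits activate a phosphoinositide 3-kinase and a phospholipase C and steer the cell along a gradient of ligand. Formyl peptides come from bacteria and damaged mitochondria, C3a and C5a are fragments of complement proteins, and leukotriene B4 and platelet-activating factor are lipids made by activated leukocytes. On neutrophils these receptors are known for guiding cells to sites of infection and injury and for priming the oxidative burst. C5ar2 is the exception in the group, since it binds C5a but is known for not signaling through G proteins.

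The stretch that sets C5ar2 apart lies at the inner end of the third membrane helix, where most receptors of this class carry a conserved motif that contacts the G protein. It is shown for each gene in the sense direction from 5′ to 3′, read from the transcripts of GENCODE M21 (GRCm38, a C57BL/6J genome, and not from these BALB/c cells), with the 3 codons of the motif in capitals as aligned between the 7 coding sequences.
Fpr1: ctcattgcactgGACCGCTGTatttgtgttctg
Fpr2: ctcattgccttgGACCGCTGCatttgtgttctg
C5ar1: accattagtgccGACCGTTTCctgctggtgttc
C5ar2: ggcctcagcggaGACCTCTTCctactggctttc
C3ar1: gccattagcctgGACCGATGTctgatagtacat
Ltb4r1: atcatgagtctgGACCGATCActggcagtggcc
Ptafr: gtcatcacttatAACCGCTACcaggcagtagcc
The middle codon is an arginine codon in 6 of these genes, and C5ar2, which is known for lacking that arginine, is the one without it. In each gene the stretch lies in the last exon of the transcript (exon 3 for C5ar1 and exon 2 for the others). For C5ar2 it is at chr7:16237530-16237562 and for C5ar1 at chr7:16248677-16248709, both on the minus strand. The coding sequences of these neighbors were 48.4% identical over 990 aligned bases, against 66.9% over 1047 bases for Fpr1 and Fpr2, the most alike pair of the 21.

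Fpr1 and Fpr2 are alike enough to share whole stretches, which bears on how well their reads can be told apart. Directly after the motif they have the same 50 bases, given here in capitals with 12 bases on each side.
Fpr1: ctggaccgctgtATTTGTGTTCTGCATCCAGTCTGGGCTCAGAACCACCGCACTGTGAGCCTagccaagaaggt
Fpr2: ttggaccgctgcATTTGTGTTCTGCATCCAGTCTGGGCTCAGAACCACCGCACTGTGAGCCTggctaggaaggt
These lie in exon 2 of each gene, at chr17:17877268-17877341 on the minus strand for Fpr1 and at chr17:17893104-17893177 on the plus strand for Fpr2. Only 1.55% of the 31-base words of Fpr1 transcripts occurred in transcripts of another gene. For Fpr2 the share was 43.0%, most of it with the pseudogene Gm5966 (37.6%), so that reads of Fpr2 could have been lost or split in the counting and its level is uncertain. Fpr2 also shares 48 exonic bases (3.70% of its length) with Fpr3 on the same strand. The other receptors shared between 0 (Ltb4r1) and 6.11% (C5ar2) of their words. The exons of C5ar2 contain the small nuclear RNA gene Gm26473, which covers 3.57% of its length.

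The genes sit on 5 chromosomes of GRCm38. Fpr1 (ENSMUSG00000045551) spans chr17:17876471-17883940 and Fpr2 (ENSMUSG00000052270) chr17:17887824-17893952. C5ar2 (ENSMUSG00000074361) spans chr7:16234585-16244154 and C5ar1 (ENSMUSG00000049130) chr7:16246743-16259540. C3ar1 (ENSMUSG00000040552) lies at chr6:122847138-122856161, Ltb4r1 (ENSMUSG00000046908) at chr14:55765962-55768494 and Ptafr (ENSMUSG00000056529) at chr4:132564067-132582683.

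The libraries held between 17767318 and 18390385 reads counted on genes. The authors deposited whole-number counts per gene, from which CPM (counts relative to the TMM-scaled library size) were computed. Of the 53465 genes, 14682 had enough reads to be tested, and all 7 receptors were among them, with at least 425 counts in each library. The neutrophil list of 12 markers was by far the most abundant, with a summed level of 63885 and 75360 CPM in the control libraries and 84341 and 75136 CPM in the EGCG libraries. The 7 monocyte markers summed to 1496 and 1275 CPM in control and to 1138 and 1185 CPM with EGCG, and the 8 macrophage markers to 394 and 390 CPM against 306 and 326 CPM. Markers of eosinophils (753 to 1061 CPM in sum), B cells (349 to 397 CPM) and basophils (219 to 244 CPM) were also present. So were those of erythroid cells (144 to 197 CPM), endothelial cells (94.2 to 126 CPM) and T cells (88.4 to 104 CPM). The lists of platelets, dendritic cells and NK cells summed to at most 43.6 CPM each. The 4T1 tumor cell markers summed to at most 6.61 CPM, with Krt14 at 0 counts in every library. In bulk RNA, fewer cells of a type and less RNA per cell cannot be told apart.

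Transcripts of all 7 receptors were detected in MDSCs, 5 of them at high levels, and each lay within 0.875 to 1.13 times its control level after EGCG. Together they took 0.246% and 0.263% of a control library and 0.274% and 0.255% of an EGCG library, so that the groups overlapped. In edgeR's quasi-likelihood test, with p-values adjusted after Benjamini and Hochberg over the whole table, 0 of the 7 receptors had an adjusted p under 0.05. Of all tested genes, 0.15% did (0.136% lower and 0.0136% higher with EGCG). At an unadjusted p under 0.05, 1 receptor passed (Ltb4r1, higher), beside 12.2% of all tested genes (7.02% lower and 5.22% higher). That count was 0 with library size only, with the length correction and without control replicate 1, 2 with upper-quartile scaling, with a replicate block and without EGCG replicate 2, and 4 without control replicate 2. Of all genes tested in the same fits, 6.52% passed without control replicate 1, 14.4% without control replicate 2, 10.4% without EGCG replicate 2, and 10.2% to 12.8% in the other fits named. Leaving out a library left its group with 1 library, so that the spread in those fits came from the other group alone. DESeq2 and limma-voom, on all 4 libraries, also called 0 receptors after adjustment and 1 without it. Without adjustment, 3.31% of 27490 genes passed in DESeq2, which had no low-count filter, and 12.4% of 14682 in limma-voom. Fitted fold changes ran from 0.875 (C3ar1) to 1.13 (Ltb4r1), and the 95% intervals of all 7 lay between 0.739-fold and 1.32-fold. A change of 1.5-fold in either direction was thus outside the interval of each receptor in this fit. The fitted median was 0.058 on the log2 scale, beside 0.0031 over all tested genes, but leaving out EGCG replicate 1 gave a median of -0.00024 and leaving out control replicate 2 a median of 0.16. Fitted values of 5 of the 7 receptors were above 0, beside 50.6% of all tested genes.

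**Figure D1:**
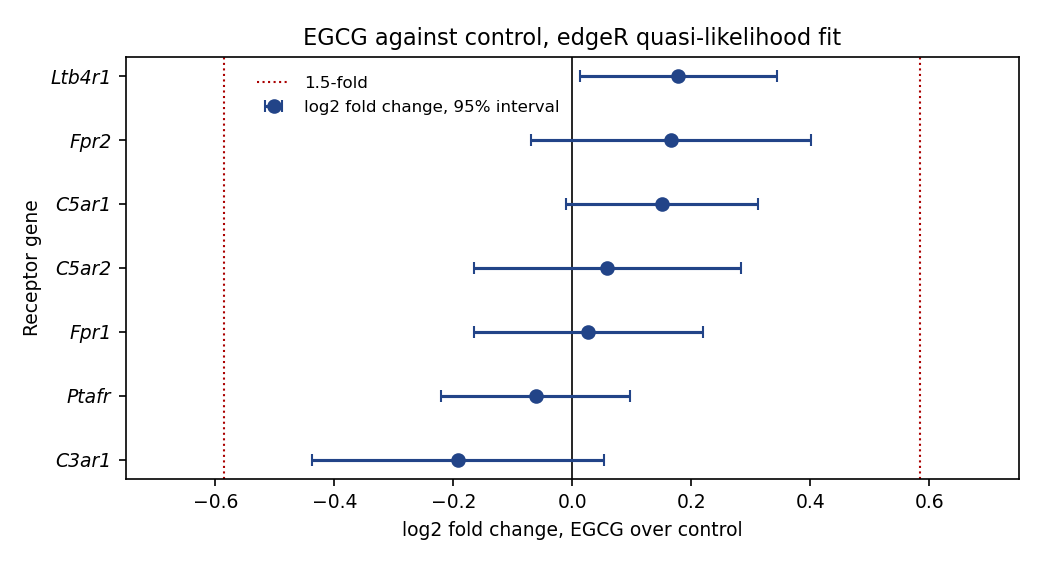
Log2 fold change (EGCG over control) of the 7 receptor genes from edgeR's quasi-likelihood fit, n = 2 libraries per group. Points are estimates, bars are 95% intervals and dotted lines mark a 1.5-fold change in either direction. All bars lie inside the dotted lines, and Ltb4r1 is the one gene whose bar does not reach 0.

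Levels of different genes were compared as CPM per kb of exonic length. Fpr2 had the highest level, with 611 and 745 CPM per kb in the control libraries and 844 and 677 CPM per kb in the EGCG libraries, and only 0.368% of the tested genes were above it. Fpr1 followed with 327 and 389 CPM per kb in control and 379 and 350 CPM per kb with EGCG. These receptors for formyl peptides gave more counts than the other 5 receptors together in every library, with 18.8% ± 0.957 from Fpr1 and 34.8% ± 2.35 from Fpr2 in the control group (SD, n = 2). Ltb4r1 (161 to 196 CPM per kb over the 4 libraries), C5ar1 (138 to 161 CPM per kb) and Ptafr (125 to 135 CPM per kb) formed a middle group. C3ar1 (14.5 ± 2.22 CPM per kb in control and 12.7 ± 1.80 CPM per kb with EGCG, SD, n = 2) and C5ar2 (6.68 to 7.57 CPM per kb) were far lower, and 24.8% and 37.7% of the tested genes were above them. No neighbors in this order overlapped over the 4 libraries, although Ltb4r1 and C5ar1, and C5ar1 and Ptafr, were close (control means 1.17 and 1.08 times apart). The order within this middle group depends on the exonic lengths used. Without the division by length it ran the other way, with control means of 481 (Ptafr), 367 (C5ar1) and 232 CPM (Ltb4r1). An error in a length would be shared by all 4 libraries, so their separation does not cover it. The order per length was the same in both groups.

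**Figure D2:**
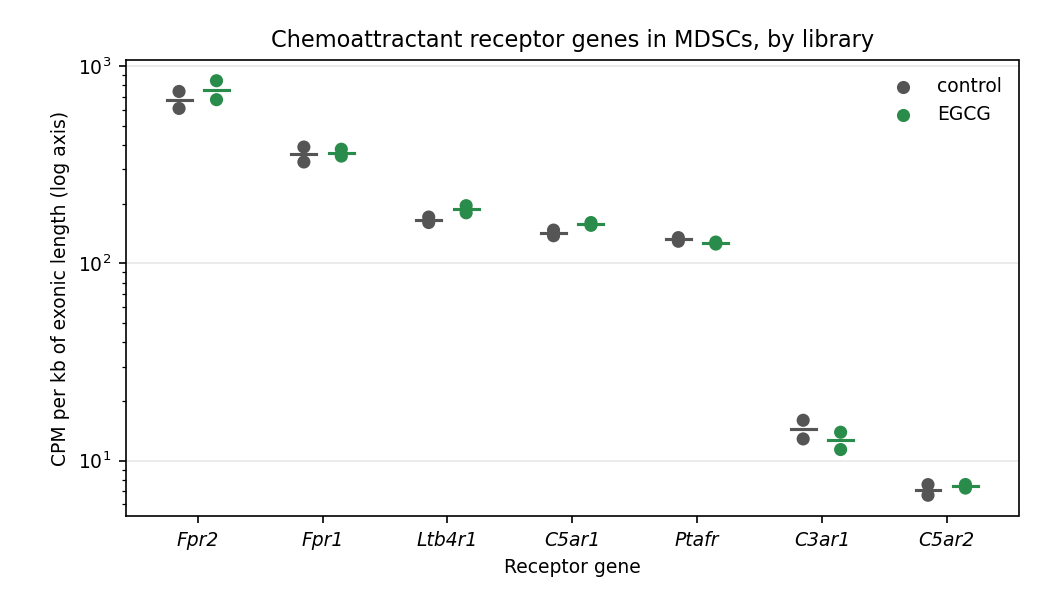
Level of each receptor gene in CPM per kb of exonic length (log axis), with 1 point per library and a line at the mean of each group (control gray, EGCG green). Fpr2 is highest and C5ar2 lowest in both groups, and the control and EGCG points of each gene lie close together beside the differences between most of the genes.

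Fpr1 and Fpr2 are known for sensing formyl peptides with high and low affinity, and Fpr2 also binds annexin A1 and serum amyloid A. Fpr1 was at 433 and 515 CPM in control and at 502 and 464 CPM with EGCG. The 2 groups overlapped, and the control libraries enclosed both EGCG libraries. The fit gave a log2 fold change of 0.027 (standard error 0.090, adjusted p of 0.938, edgeR's quasi-likelihood test). The sign of this small value turned negative without TMM scaling (-0.0064), with a length correction (-0.024) and without replicate 1 of either group (-0.089 and -0.029). For Fpr2 the values were 792 and 965 CPM in control and 1094 and 877 CPM with EGCG. EGCG replicate 1 was the highest and control replicate 1 the lowest, and the other two libraries lay between them in the reverse order of their groups. The log2 fold change of Fpr2 was 0.17 (standard error 0.11, adjusted p of 0.591), smaller than the distance between the replicates, which on the log2 scale was 0.29 in control and 0.32 with EGCG. Leaving out EGCG replicate 1 gave -0.00024 and leaving out control replicate 1 gave 0.035, while leaving out either of the other libraries gave 0.32. The summed neutrophil markers put the 4 libraries in the same order as Fpr2. In that sum EGCG replicate 2 (75136 CPM) and control replicate 2 (75360 CPM) were nearly level. S100a8 and S100a9, the most abundant of the 12 markers, had log2 fold changes of 0.38 and 0.21. Of the 12, 9 were above 0 and 3 below 0 (Ltf, Mmp8 and Cxcr2), and 0 passed after adjustment. Csf3r, Cd177 and Cxcr2 were at 0.012, 0.0044 and -0.0078. The part of the neutrophil markers in the Fpr2 values was not tested.

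Within a library, the ratio of Fpr2 to Fpr1 per length does not depend on scaling. In control it was 1.87 and 1.91, and with EGCG 2.22 and 1.93. Both EGCG values were higher, replicate 2 by little, with a p of 0.333 in a two-sided exact permutation test, the smallest that 2 against 2 libraries can give.

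C5ar1 is the main signaling receptor for C5a, one of the strongest attractants of neutrophils. It was at 355 and 379 CPM in the control libraries and at 401 and 414 CPM in the EGCG libraries. The groups did not overlap, and the replicates lay close together. The log2 fold change was 0.15 (standard error 0.075, 95% interval from -0.010 to 0.31), with an adjusted p of 0.445 by edgeR's quasi-likelihood test. C5ar2, which binds C5a and is thought to act as a modulator of C5ar1, was at 26.9 and 23.8 CPM in control and at 27.0 and 25.9 CPM with EGCG. Its groups overlapped, and the log2 fold change of 0.058 (standard error 0.10, adjusted p of 0.874) became -0.026 without control replicate 2. Per length, C5ar1 exceeded C5ar2 by 18.3 and 22.1 times in control and by 20.6 and 22.2 times with EGCG (p of 0.667, two-sided exact permutation test).

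C3ar1, the receptor for C3a, is known on monocytes and macrophages as well as on granulocytes. It was at 69.0 and 55.5 CPM in the control libraries and at 49.0 and 60.0 CPM in the EGCG libraries. Control replicate 1 was the highest and EGCG replicate 1 the lowest, while the other libraries overlapped. Its log2 fold change of -0.19 (standard error 0.11, 95% interval from -0.44 to 0.053, adjusted p of 0.537, edgeR's quasi-likelihood test) was the lowest of the receptors. On the log2 scale the replicates were 0.31 apart in control and 0.29 apart with EGCG. Without control replicate 1 the value was -0.022 and without EGCG replicate 1 it was -0.051, whereas it was -0.34 without either of the other libraries. The summed monocyte and macrophage markers were also highest in control replicate 1 and lowest in EGCG replicate 1. By single genes, 6 of the 7 monocyte and 8 of the 8 macrophage markers had a log2 fold change below 0, though none of them passed the test. Of all tested genes, 50.6% were above 0. Among the monocyte markers, Fn1 was the lowest (-0.72), Ccr2 was at -0.0021 and Ly6c2 was above 0 (0.12). The part of these markers in the lower C3ar1 values was not tested.

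Ltb4r1 guides neutrophils and other leukocytes toward leukotriene B4. It was at 225 and 240 CPM in the control libraries and at 252 and 274 CPM in the EGCG libraries, so that both EGCG libraries were above both control libraries. The log2 fold change was 0.18 (standard error 0.077, 95% interval from 0.013 to 0.34). Its unadjusted p of 0.0368 became 0.378 after adjustment over all tested genes in edgeR's quasi-likelihood test. Ltb4r1 also missed the unadjusted threshold with library size only, with the length correction and without control replicate 1 or EGCG replicate 2, the last with a log2 fold change of 0.12. The nearest patterns over the 4 libraries, among 8203 genes with a mean of at least 10 CPM, belonged to Ptp4a3, Ubxn8 and Kdelr1, with root-mean-square distances of 0.0052, 0.0056 and 0.0066 on the centered log2 scale. Ptafr, whose lipid ligand primes neutrophils and activates platelets, was at 492 and 471 CPM in control and 456 and 467 CPM with EGCG. Both EGCG libraries were below both control libraries, but by a small margin, at a log2 fold change of -0.061 (standard error 0.074, adjusted p of 0.795), which was -0.025 on leaving out control replicate 1. In all, control and EGCG libraries were separate for 3 receptors (C5ar1 and Ltb4r1 higher, Ptafr lower), beside 42.7% of all tested genes, of which 21.5% were higher and 21.2% lower.

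**Figure D3:**
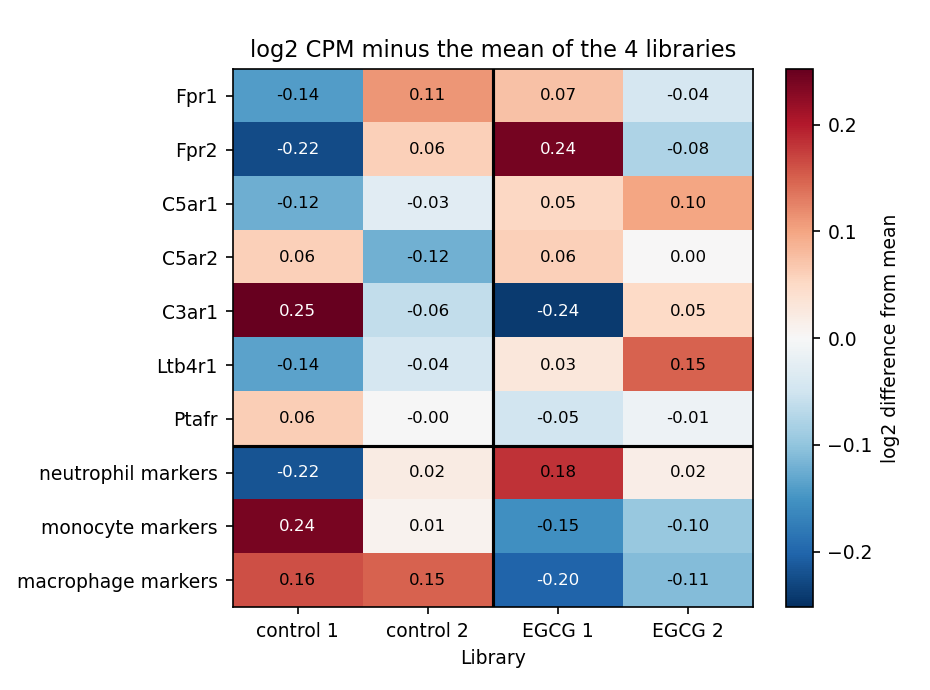
Difference of each library's log2 CPM from the mean of the 4 libraries, for the 7 receptor genes and for the summed markers of neutrophils, monocytes and macrophages. Red is above and blue below the mean, the vertical line divides the groups and the horizontal line the genes from the marker sums. Fpr2 and the neutrophil markers are lowest in control replicate 1 and highest in EGCG replicate 1, and C3ar1 and the monocyte markers show the reverse.

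The related receptors of these families ranged from undetected to abundant in MDSCs. Of 13 genes, 6 (Fpr-rs3, Fpr-rs4, Fpr-rs6, Fpr-rs7, Gpr1 and Gpr33) had 0 counts in every library, which allows a level of up to 0.164 to 0.168 CPM for each (3 counts, counting error only). Only 5 were tested, and by edgeR's quasi-likelihood test 0 had an adjusted p under 0.05 and 1 an unadjusted p under 0.05, where 0.15% and 12.2% of all tested genes did. The unadjusted count was also 1 under each of the 11 alternatives that kept every library. In those fits 3.31% (DESeq2) to 12.8% (library size only) of all tested genes passed without adjustment. The DESeq2 share is over 27490 genes, many of them with few counts, and the other over 14682, so the shares are not alike. The gene in the fit of all libraries was Cmklr1, the chemerin receptor of macrophages and other leukocytes. It was at 44.1 and 32.1 CPM in control and at 22.5 and 30.2 CPM with EGCG. The groups did not overlap, with control replicate 1 the highest and EGCG replicate 1 the lowest, as for C3ar1. Its log2 fold change was -0.53 (standard error 0.15, adjusted p of 0.188, edgeR's quasi-likelihood test). Without replicate 1 of control or of EGCG it was -0.28 or -0.33, and without replicate 2 it was -0.74 or -0.76. These fits leave 1 library in a group. Over the 11 alternative settings, which kept every library, the adjusted p of Cmklr1 ran from 0.0522 to 0.685. Ccrl2, a chemerin-binding receptor that does not signal through G proteins, was the most abundant relative (167 ± 21.9 CPM in control and 175 ± 18.3 CPM with EGCG, SD, n = 2), with a log2 fold change of 0.065 that turned to -0.059 on leaving out control replicate 1 and to -0.045 on leaving out EGCG replicate 2. Ltb4r2, the low-affinity leukotriene B4 receptor next to Ltb4r1 on chromosome 14, had 29 and 29 counts in control and 25 and 11 with EGCG (log2 fold change of -0.68, standard error 0.40, adjusted p of 0.528). This value was -1.37 without EGCG replicate 1 and -0.22 without EGCG replicate 2.

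Of 21 genes for ligands and for the enzymes that make or degrade them, 16 were tested. By edgeR's quasi-likelihood test 0 passed after adjustment in either direction, while 2 were lower and 1 was higher at an unadjusted p under 0.05, beside 0.15% and 12.2% of all tested genes. The unadjusted count of 3 was 6 on leaving out control replicate 2 (beside 14.4% of all genes in that fit), and 2 with the length correction or on leaving out control replicate 1. DESeq2 called 2 of them, Saa3 and C3, and over the whole table it called 50 genes lower and 16 higher of 27490. Saa3, which encodes an acute-phase serum amyloid A protein, was at 61.8 and 67.4 CPM in control and at 47.0 and 47.2 CPM with EGCG. Both EGCG libraries were well below the control libraries (log2 fold change of -0.46, standard error 0.085, adjusted p of 0.0546). The adjusted p was under 0.05 in 5 of 11 alternative settings, in a range from 0.00782 to 0.562. With a library left out, the log2 fold change ran from -0.51 to -0.39. The study placed Saa3 among its top genes on these same samples, so that its direction is not independent evidence. In the study's qRT-PCR, Saa3 went the other way, significantly higher at 5 μg/mL of EGCG than in control. C3, the precursor of C3a, was at 1928 and 1953 CPM in control and at 1619 and 1620 CPM with EGCG, a log2 fold change of -0.26 (standard error 0.077, adjusted p of 0.217 in edgeR and 0.0466 in DESeq2, in a range from 0.0466 to 0.593). Its groups were well apart and its replicates close together.

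Alox5ap, which presents arachidonic acid to the leukotriene-forming lipoxygenase, was at 632 and 702 CPM in control and at 744 and 787 CPM with EGCG (log2 fold change of 0.20, standard error 0.081, adjusted p of 0.344, and 0.13 on leaving out control replicate 1). Anxa1 and Camp encode ligands of Fpr2 and were abundant, with 5253 ± 655 and 1363 ± 140 CPM in control and 5894 ± 419 and 1487 ± 81.8 CPM with EGCG (SD, n = 2). Their groups overlapped, and Camp is also one of the neutrophil markers.

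All 22 genes of the G proteins and effectors below the receptors were tested, and 0 had an adjusted p under 0.05 by edgeR's quasi-likelihood test. At an unadjusted p under 0.05, 3 were lower (Plcb2, Dock5 and Gna15) and 1 was higher (Gng5), beside 7.02% lower and 5.22% higher among all tested genes. This count of 4 was 0 on leaving out control replicate 1, 2 on leaving out EGCG replicate 2 and 8 on leaving out control replicate 2, fits in which 6.52%, 10.4% and 14.4% of all tested genes passed. Plcb2, the phospholipase C activated by G protein subunits in leukocytes, was at 265 and 240 CPM in control and at 226 and 199 CPM with EGCG. With both EGCG libraries lower, its log2 fold change was -0.25 (standard error 0.084, adjusted p of 0.259), and it ran from -0.34 on leaving out EGCG replicate 1 to -0.16 on leaving out EGCG replicate 2. Dock5, an activator of Rac, had a log2 fold change of -0.19 (-0.070 with the length correction), Gna15, a G protein subunit of blood cells, had -0.28, and Gng5, a gamma subunit, had 0.22 (adjusted p from 0.305 to 0.327). Leaving out control replicate 1 gave -0.097 for Gna15 and 0.14 for Gng5, and leaving out control replicate 2 gave -0.44 and 0.32. Over the alternatives that kept every library, the adjusted p of Gna15 ran from 0.198 to 0.757. Gnai2, the main inhibitory G protein of neutrophils, was at 1924 ± 14.2 CPM in control and 2097 ± 63.6 CPM with EGCG (SD, n = 2), with a log2 fold change of 0.12. The median of the list was 0.026, with values from -0.28 to 0.22.

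The 11 genes that switch the receptors off were all tested, and 0 passed after adjustment by edgeR's quasi-likelihood test, with 1 at an unadjusted p under 0.05, beside 12.2% of all tested genes. Over the alternative settings that kept every library, the unadjusted count was 1 or 2. It was 2 with no low-count filter, library size only, upper-quartile scaling, a replicate block and limma-voom. In these fits 6.53% (no low-count filter, over 27490 genes) to 12.8% (library size only, over 14682 genes) of all tested genes passed without adjustment. The gene in the fit of all libraries, Grk3, encodes a kinase that marks active receptors for arrestin binding. It was at 44.4 and 31.4 CPM in control and at 23.1 and 27.2 CPM with EGCG, a log2 fold change of -0.59 (standard error 0.14, adjusted p of 0.120). The value was -0.32 on leaving out control replicate 1 and -0.82 on leaving out control replicate 2. Both EGCG libraries were below both control libraries, of which control replicate 1 was the higher. The adjusted p of Grk3 was 0.0218 with library size only and reached 0.659 over the alternatives that kept every library. Grk2, the more abundant kinase of this family, was at 1158 ± 11.7 CPM in control and 1197 ± 17.3 CPM with EGCG (SD, n = 2), a log2 fold change of 0.048. Among the others, Arrb1, a beta-arrestin, had a log2 fold change of -0.14 (-0.037 with the length correction), and Rgs19, Grk6 and Rgs14 had 0.15, 0.13 and 0.13. The list had a median of 0.072.

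**Figure D4:**
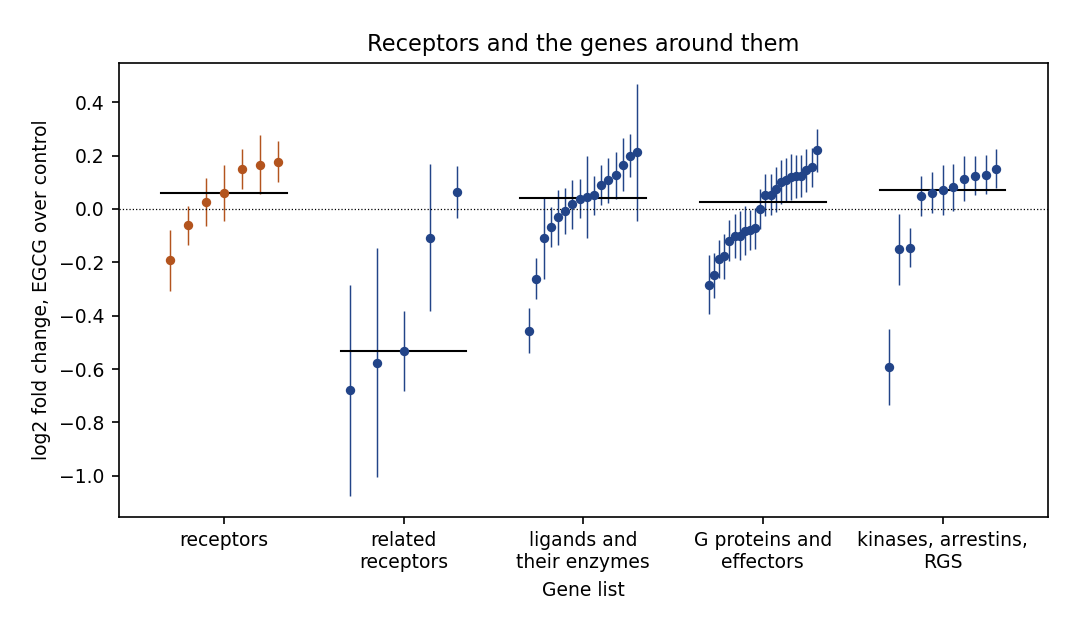
Log2 fold change (EGCG over control) of the tested genes of each list, sorted within the list, with the standard error as a bar and the list's median as a black line. All receptors, all G proteins and effectors and all ligand genes but Saa3 lie between -0.28 and 0.22, and Cmklr1, Saa3 and Grk3 are lower, with standard errors of at most 0.15. Ltb4r2 and Cysltr2 are also lower, at -0.68 and -0.58, with standard errors of 0.40 and 0.43. Cysltr2 was -1.09 without EGCG replicate 1 and -0.20 without EGCG replicate 2.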

How the data were processed

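Per the labels and the study's methods, reads were aligned with STAR 2.6.0c to GRCm38 and counted with featureCounts 1.6.2 on Ensembl release 91 by the authors, who deposited raw counts per gene made without regard to strand. There were 0 columns of other samples and 0 rows without a gene name. In edgeR 4.0.16 (R 4.3.3), genes were filtered with filterByExpr (minimum count of 10), scaled by TMM and compared by the quasi-likelihood test in its legacy form, with Benjamini-Hochberg adjustment over 14682 genes and a threshold of 0.05. The standard error is the log2 fold change divided by the square root of F. The fit was first tested on simulated data. Replicates differed by more than sampling noise (mean chi-square per gene of 6.25 in control and 6.08 in EGCG).

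The receptors and gene lists were chosen with earlier results of these data known. The genes named are the receptors, up to 5 genes per list with the smallest p, abundant list genes where a level is described, the 3 nearest patterns of the receptor with the smallest p, and markers as lists. Members of a list that are not named were counted only. GENCODE M21 (GRCm38) gave positions, exonic lengths and transcripts for 53360 identifiers, and coding sequences were aligned by their translation with mafft 7.526. Alternatives were other filters and scalings, edgeR's newer and robust forms, DESeq2 1.42.0, limma-voom (limma 3.58.1), a length correction (loess with a span of 0.4), a replicate block and leaving out each library.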

Additional observations from a re-analysis of the deposited data

How the results depend on the processing

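The count of 0 receptors past the threshold was the same under all 11 alternatives and with each library left out. Of 77 receptor values under the alternatives, 75 kept their direction, and the exception was Fpr1, with a log2 fold change of -0.0064 with library size only and -0.024 with the length correction. With a library left out, Fpr1 ran from -0.089 to 0.16, Fpr2 from -0.00024 to 0.32 and C5ar2 from -0.026 to 0.16, while Ccrl2 ran from -0.059 to 0.21. The number of ligand genes past the threshold was 1 with library size only, edgeR's newer form, the robust form and the length correction (Saa3 each time), and 2 with DESeq2. Library size only gave 1 desensitization gene (Grk3). With a library left out, the log2 fold change of Grk3 ran from -0.82 to -0.32, that of Cmklr1 from -0.76 to -0.28 and that of Gna15 from -0.44 to -0.097. The within-group differences between replicates 1 and 2 hardly correlated between the groups (0.034 over 14682 genes). That does not settle if libraries of the same number share an origin. A replicate block left 0 receptors past the threshold, with 24 lower and 6 higher genes among all tested, against 20 and 2 without it. Over all tested genes, library size only called 135 lower and 16 higher, DESeq2 50 and 16, the robust form 49 and 14, edgeR's newer form 25 and 6, upper-quartile scaling 9 and 2, the length correction 6 and 2, and no low-count filter 0 and 0. Leaving out a library called 0.504% (control replicate 1), 2.31% (control replicate 2), 0.771% (EGCG replicate 1) and 1.64% (EGCG replicate 2) of all tested genes, against 0.15% with every library. With a replicate block the log2 fold change of Ltb4r1 was 0.18 (adjusted p of 0.312 in edgeR, in a range from 0.242 to 0.900 over all settings).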
